A study of Arabidopsis thaliana with 12 samples.

Results

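Indole glucosinolate modifying enzymes are the cytochrome P450s and O-methyltransferases that finish the tryptophan-derived glucosinolates of Arabidopsis. The 7 loci described here were chosen by name. They were CYP81F1, CYP81F2, CYP81F3 and CYP81F4, which add a hydroxyl group to the indole ring, and IGMT1, IGMT2 and IGMT5, which methylate that hydroxyl group. They are 7 of 23719 genes listed in at least 1 library, and all 7 were among the 18326 genes tested. Transcript levels had been measured by RNA sequencing of roots of 5-day-old seedlings, in 4 groups of 3 libraries each: the erf114 mutant 3 h after addition of methyl jasmonate (MeJA), erf114 on MS medium without MeJA, the reference accession Col 3 h after MeJA, and Col on MS. The groups thus differ in genotype and in MeJA and share tissue, age, 2 days of cold at 4 °C and growth at 22 °C. MeJA, a methyl ester of jasmonate, the hormone of wounding and defence, was given at 15 µM per the treatment protocol and at 50 µM per the series' design text, so its dose is not settled. The kind of mutation, the number of mutant lines and whether replicates were separate cultures are not stated there, so p-values measure the spread between these libraries, which may be technical. The comparisons ask how applied jasmonate alters these genes in roots and whether ERF114, an ERF-family transcription factor, takes part in that response.

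Indole glucosinolates are sulfur-rich defence compounds that are stored intact and cleaved by beta-glucosidases after damage or attack. The parent compound, indol-3-ylmethyl glucosinolate, can be hydroxylated at position 4 of the ring and then methylated to the 4-methoxy form, or hydroxylated at position 1, on the ring nitrogen, and methylated to the 1-methoxy form. CYP81F2 is known for the 4-hydroxylation that feeds antifungal defence in leaves, CYP81F1 and CYP81F3 can carry out the same step, and CYP81F4 is required for the 1-methoxy form, which is abundant in roots. IGMT1 and IGMT2 are linked to methylation of the 4-hydroxy product and IGMT5 to that of the 1-hydroxy product. These links need not be exclusive, and the products were not measured here.

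Levels are given in FPKM, fragments scaled by transcript length and library size, so they can be compared between genes. A value after ± is the SD (n = 3) for a level and the standard error for a log2 fold change. Libraries held 20546417 to 20897031 estimated counts. The quasi-likelihood test of edgeR gave the adjusted p-values (Benjamini-Hochberg, over the 18326 genes), and 0.05 was the threshold. ERF114 itself (AT5G61890) had 0.60 ± 0.09 FPKM in erf114 and 2.53 ± 0.41 FPKM in Col on MeJA, and at most 3 counts in all per genotype on MS. Between erf114 and Col on MeJA its log2 value was -1.95 (edgeR adjusted p = 0.071). Its FPKM on MeJA was lower in all 3 erf114 libraries than in all 3 Col libraries. A separation in either direction was true of 17.4% of all genes tested. ERF114 entered the test through its Col MeJA libraries alone, the group where it was highest, so this comparison is a description only. Along the first principal component of all tested genes (58.8% of the variance) the libraries separated by MeJA. Along the second (20.9%) Col MS replicate 1 (57.8) and erf114 MeJA replicate 3 (42.9) stood apart from the other 10 libraries, which lay between -21.7 and 10.9. Without either of them the number of the 7 genes called was the same in every contrast. All 6 root markers checked were detected in every library, with PYK10 at 2987 to 11330 FPKM, CASP1 at 487.8 to 875.3, COBL9 at 17.2 to 39.2, SCR at 14.3 to 26.6, RHD6 at 5.83 to 15.6 and SMB at 1.64 to 4.08. With MeJA, PYK10 rose in both genotypes and COBL9, a gene of root hairs, fell in Col (21.3 ± 1.6 FPKM on MeJA and 36.9 ± 2.3 on MS, log2 -0.74 ± 0.17, edgeR adjusted p = 0.0068). In erf114 COBL9 stood at -0.48 ± 0.17 (edgeR adjusted p = 0.07). At an unadjusted p under 0.05 there were 3 of the 6 in erf114 and 5 of the 6 in Col, and their part in the values below was not tested. The summed level of 8 shoot photosynthesis markers ran from 161 to 680 FPKM in erf114 on MeJA, from 445 to 993 in erf114 on MS, from 235 to 523 in Col on MeJA and from 306 to 1181 in Col on MS. None of the 8 passed in any contrast (1 had an unadjusted p under 0.05 for MeJA in Col), and their part was not tested either. In whole roots, fewer cells of a type and less RNA per cell cannot be told apart.

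The 7 genes lie at 4 places in the genome. Lengths implied by the deposited counts and FPKM matched those of RefSeq transcripts on TAIR10.1, less a constant per library, within 1% for 100% of the 878 to 959 genes that could be compared, and positions below are on that build. CYP81F3 (AT4G37400, chr4:17583992-17586442), CYP81F4 (AT4G37410, chr4:17590772-17592920) and CYP81F1 (AT4G37430, chr4:17597110-17598958) stand in a row on the plus strand of chromosome 4, within 15 kb. CYP81F2 (AT5G57220, chr5:23187840-23189902) is alone on chromosome 5. IGMT1 (AT1G21100, chr1:7386762-7388512) and IGMT2 (AT1G21120, chr1:7395179-7396823) belong to a tandem array on the minus strand of chromosome 1 that also holds IGMT3 (AT1G21110) and IGMT4 (AT1G21130) within a stretch as short. IGMT5 (AT1G76790, chr1:28822186-28823727) is on the same chromosome but far from the array. The coding sequences of CYP81F3 and CYP81F4 were the closest pair of the CYP81F genes, at 81.7% identity over aligned bases, and CYP81F2 was at 70.2 to 72.4% identity with the other 3. IGMT2 and IGMT3 were 97.4% identical, IGMT1 and IGMT2 92.5%, and IGMT5 was at 77.0 to 77.5% to the 4 tandem copies.

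The 300 bases before the annotated transcript start are shown for CYP81F4, which had the highest level of the 7 genes, and for 3 of the tandem copies, whose levels went different ways. They are credited to RefSeq on TAIR10.1 and are given 5′ to 3′ on the strand of the gene: CYP81F4 at chr4:17590472-17590771 (plus), IGMT1 at chr1:7388513-7388812 (minus), IGMT2 at chr1:7396824-7397123 (minus) and IGMT3 at chr1:7391604-7391903 (minus). Capitals mark a match to GCCGCC, in IGMT1. The last 3 bases of the CYP81F4 window lie within AT4G37409, a gene on the opposite strand.
CYP81F4: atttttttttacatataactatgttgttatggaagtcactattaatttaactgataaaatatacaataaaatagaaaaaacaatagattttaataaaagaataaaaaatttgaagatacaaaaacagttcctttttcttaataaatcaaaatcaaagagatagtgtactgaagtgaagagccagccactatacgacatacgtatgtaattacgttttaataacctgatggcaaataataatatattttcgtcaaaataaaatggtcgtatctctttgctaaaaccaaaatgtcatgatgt
IGMT1: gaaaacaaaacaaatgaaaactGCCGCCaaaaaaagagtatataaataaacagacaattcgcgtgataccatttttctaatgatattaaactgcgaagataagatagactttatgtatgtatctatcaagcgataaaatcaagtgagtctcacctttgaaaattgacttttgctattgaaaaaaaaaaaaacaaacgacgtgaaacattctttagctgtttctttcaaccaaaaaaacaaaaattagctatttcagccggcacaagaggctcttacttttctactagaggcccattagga
IGMT2: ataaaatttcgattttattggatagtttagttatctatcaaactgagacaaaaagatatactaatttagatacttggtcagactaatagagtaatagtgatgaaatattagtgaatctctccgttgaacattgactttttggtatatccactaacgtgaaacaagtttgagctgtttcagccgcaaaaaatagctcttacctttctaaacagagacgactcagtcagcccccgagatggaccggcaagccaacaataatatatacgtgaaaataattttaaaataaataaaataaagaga
IGMT3: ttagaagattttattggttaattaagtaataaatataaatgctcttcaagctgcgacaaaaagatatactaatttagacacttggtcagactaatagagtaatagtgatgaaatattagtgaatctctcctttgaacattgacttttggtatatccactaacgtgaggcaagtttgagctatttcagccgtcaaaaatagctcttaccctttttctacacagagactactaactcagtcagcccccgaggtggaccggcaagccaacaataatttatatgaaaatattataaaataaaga
The windows of IGMT2 and IGMT3 were 92.2% identical over 281 aligned bases. That of IGMT1 was 68.5% identical to IGMT2 over 238 bases, 65.5% to IGMT4 over 261 and 62.5% to IGMT3 over 259. The window of IGMT4 was 60.4% identical to IGMT3 and 56.6% to IGMT2. For comparison, CYP81F3 and CYP81F4 gave 61.8% over 262, CYP81F1 and CYP81F3 59.7% over 263, and CYP81F1 and CYP81F4 56.2% over 272. The search covered both strands of the windows of IGMT1 to IGMT4 and the 4 CYP81F genes for the G-box CACGTG, the core of MYC binding sites, its variant CACATG, and the core of the GCC-box, GCCGCC, a motif of ERF proteins. None of these 8 windows held CACGTG, which 7.09% of 27443 promoters of protein-coding genes held in a window of this length. CACATG was present at 2 places in CYP81F1 (13.1% of promoters held it). GCCGCC was present once in IGMT1 (2.26% of promoters). The matches did not overlap each other, and they describe the letters in these windows only.

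Of the 7 genes, 5 rose with MeJA in both genotypes (CYP81F1, CYP81F3, CYP81F4, IGMT1 and IGMT5). CYP81F2 fell in both, and IGMT2 fell in Col. In erf114, 18.8% of all genes tested were called for MeJA, 10.2% higher and 8.59% lower, and in Col 22%, 10.4% higher and 11.5% lower. The median log2 fold change of the 7 genes was 1.45 in erf114 and 1.24 in Col, beside medians of -0.01 in erf114 and 0.00 in Col over all genes tested. The FPKM values were not rescaled between libraries, and on that scale the median gene shifted by -0.28 in erf114 and -0.05 in Col with MeJA, so ratios of FPKM are smaller than the fold changes of the test in erf114.

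**Figure D1:**
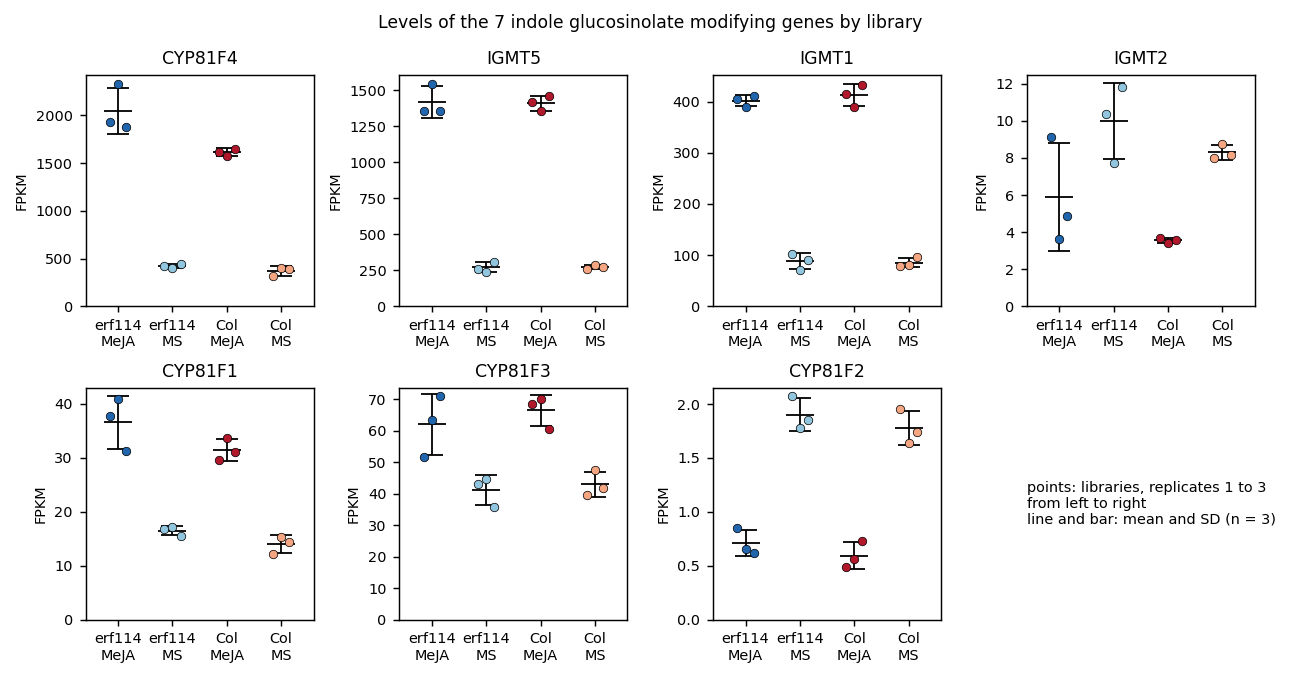
FPKM of the 7 genes in each library (points, replicates 1 to 3 from left to right), with the group mean and SD (n = 3), in erf114 and Col on MeJA and on MS, each panel with its own axis from 0. The MeJA libraries of CYP81F4, IGMT5 and IGMT1 lie far above the MS libraries, those of CYP81F2 lie below them, and IGMT2 in erf114 MeJA replicate 1 (9.15 FPKM) lies at the MS level.

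The genes of the 1-methoxy branch had the highest levels. CYP81F4 had 1936, 2328 and 1882 FPKM in the erf114 MeJA libraries, against 423, 405 and 443 FPKM in the erf114 MS libraries. In Col it had 1619, 1575 and 1654 FPKM on MeJA, against 313, 405 and 389 FPKM on MS. The MeJA and MS libraries did not overlap in either genotype, as was true of 48.8% of all genes tested in erf114 and 38.6% in Col. The same shares stand beside each separation of MeJA and MS libraries given below for the other genes. The rise was 5.95-fold in erf114 (log2 2.57 ± 0.12, edgeR adjusted p = 4e-08) and 4.61-fold in Col (2.20 ± 0.12, edgeR adjusted p = 1.2e-07). On MeJA it held rank 29 in erf114 and rank 44 in Col by mean FPKM among the genes tested, beside rank 410 in erf114 and rank 469 in Col on MS.

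IGMT5, the methyltransferase linked to the same branch, had 1351, 1542 and 1355 FPKM in erf114 on MeJA, against 261, 240 and 309 FPKM in erf114 on MS. In Col the libraries had 1419, 1354 and 1456 FPKM on MeJA, against 259, 286 and 275 FPKM on MS. Again the MeJA libraries lay above the MS libraries in both genotypes. The rise was 6.48-fold in erf114 (log2 2.70 ± 0.14, edgeR adjusted p = 9.3e-08) and 5.38-fold in Col (2.43 ± 0.14, edgeR adjusted p = 2.2e-07). In each of the genotypes IGMT5 had the largest log2 fold change of the 7 genes, at rank 232 of all genes tested in erf114 and rank 269 in Col. The ratio of CYP81F4 to IGMT5 FPKM was 1.44 ± 0.06 in erf114 on MeJA and 1.58 ± 0.13 in erf114 on MS, and 1.15 ± 0.02 in Col on MeJA and 1.35 ± 0.12 in Col on MS.

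CYP81F4 is covered over 99.6% of its span by AT4G37409, an annotated protein-coding gene on the opposite strand. AT4G37409 stood at 22.9 ± 2.3 FPKM in erf114 on MeJA and 4.80 ± 0.60 on MS, and at 18.0 ± 4.0 in Col on MeJA and 3.33 ± 0.38 on MS. It rose with MeJA by 2.56 ± 0.20 in erf114 (edgeR adjusted p = 2.2e-06) and 2.48 ± 0.21 in Col (edgeR adjusted p = 3.3e-06) on the log2 scale. Whether reads were counted by strand is not given in the sources used here, and without strand the reads of both genes cannot be told apart. CYP81F1 is likewise covered over 98.4% of its span by the antisense RNA gene AT4G37432, which was not analysed here.

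The 2 methyltransferases linked to the 4-methoxy branch differed. IGMT1 had 404, 390 and 412 FPKM in erf114 on MeJA, against 103, 71.1 and 90.4 FPKM in erf114 on MS. In Col it had 416, 389 and 433 FPKM on MeJA, against 79.8, 80.5 and 96.1 FPKM on MS. The groups did not overlap, and the rise was 5.65-fold in erf114 (log2 2.50 ± 0.17, edgeR adjusted p = 7.4e-07) and 5.04-fold in Col (2.33 ± 0.17, edgeR adjusted p = 1.2e-06).

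IGMT2 was low throughout. It had 9.15, 3.62 and 4.89 FPKM in erf114 on MeJA, against 10.4, 7.74 and 11.8 FPKM in erf114 on MS. In Col it had 3.71, 3.4 and 3.55 FPKM on MeJA, against 7.97, 8.73 and 8.18 FPKM on MS. The Col libraries on MeJA lay below all Col libraries on MS, while in erf114 replicate 1 on MeJA lay within the range of the MS libraries. In Col IGMT2 fell by 1.15 ± 0.30 on the log2 scale (edgeR adjusted p = 0.017). In erf114 its log2 value was -0.44 ± 0.29 (edgeR adjusted p = 0.39), with a 95% interval of -1.08 to 0.20. Without erf114 MeJA replicate 1 it was -0.91 and passed (edgeR adjusted p = 0.03), while without erf114 MeJA replicate 2 it was -0.15 (edgeR adjusted p = 0.72). In Col the call was lost without Col MeJA replicate 2 (-1.10, edgeR adjusted p = 0.066) or without Col MeJA replicate 3 (-1.14, edgeR adjusted p = 0.06). The interaction of genotype and MeJA for IGMT2 was 0.71 ± 0.42 (edgeR adjusted p = 0.64), so a difference between the genotypes in its response did not pass. That value was 0.25 without erf114 MeJA replicate 1 (edgeR adjusted p = 0.77) and 1.00 without erf114 MeJA replicate 2 (edgeR adjusted p = 0.34).

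The tandem neighbours gave further copies to compare. IGMT3 had 87.0 ± 17.6 FPKM in erf114 on MeJA and 110 ± 20 in erf114 on MS, and 70.1 ± 7.4 in Col on MeJA and 101 ± 11 in Col on MS. Its log2 value for MeJA was -0.03 ± 0.20 in erf114 (edgeR adjusted p = 0.95) and -0.47 ± 0.20 in Col (edgeR adjusted p = 0.12). IGMT4, at 3.96 to 11.8 FPKM over all libraries, gave -0.20 ± 0.34 in erf114 (edgeR adjusted p = 0.78) and -0.51 ± 0.34 in Col (edgeR adjusted p = 0.32). IGMT1 thus was the copy that rose, and its share of the summed FPKM of the 4 copies was 80.2 ± 3.5% in erf114 on MeJA and 40.4 ± 2.2% in erf114 on MS, and 83.7 ± 0.9% in Col on MeJA and 41.7 ± 0.6% in Col on MS. IGMT3, and not IGMT2, held most of the rest.

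**Figure D2:**
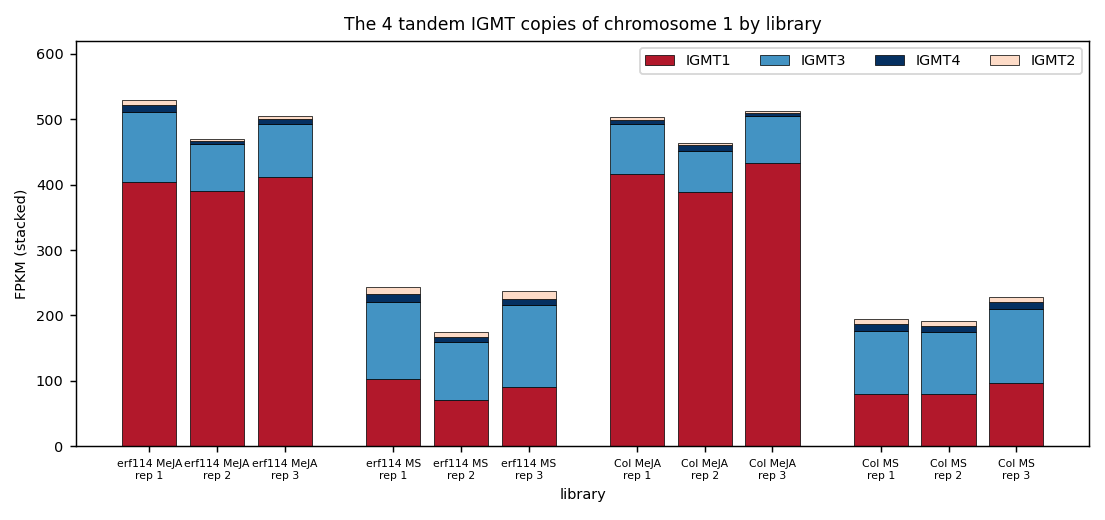
Stacked FPKM of IGMT1, IGMT3, IGMT4 and IGMT2 (from the bottom up) in each of the 12 libraries, grouped as erf114 MeJA, erf114 MS, Col MeJA and Col MS. IGMT1 fills 76.2 to 84.4% of the stack in the MeJA libraries and 38.1 to 42.4% in the MS libraries, while IGMT2 is a thin band in each.

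The near identity of these copies bears on their counts. Of the 1314 windows of 100 bases in the IGMT2 transcript, 281 (21.4%) were also present in IGMT3, and 0 in IGMT1. IGMT1 shared 50 of 1446 windows (3.5%), with IGMT4, and the transcripts of IGMT5 and of the CYP81F genes shared none with another gene of the set. Fractional counts, which an estimate can give where a read fits more than 1 gene, were present for IGMT2 and IGMT3 in 12 of 12 libraries, for IGMT1 and IGMT4 in 3 of 12, and for IGMT5 and the CYP81F genes in 0. The values of IGMT2 and IGMT3 are therefore uncertain where reads could be assigned to either. With the 4 copies summed into 1 feature, the rise with MeJA was 1.55 ± 0.17 in erf114 (edgeR adjusted p = 3.8e-05) and 1.37 ± 0.17 in Col (edgeR adjusted p = 9.8e-05) on the log2 scale.

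The P450s linked to 4-hydroxylation moved apart. CYP81F1 had 37.7, 40.9 and 31.2 FPKM in erf114 on MeJA, against 16.7, 17.1 and 15.5 FPKM in erf114 on MS. In Col the libraries had 29.7, 33.7 and 31.0 FPKM on MeJA, against 12.2, 15.4 and 14.4 FPKM on MS. The groups did not overlap, and the rise was 2.73-fold in erf114 (log2 1.45 ± 0.09, edgeR adjusted p = 2.8e-07) and 2.36-fold in Col (1.24 ± 0.09, edgeR adjusted p = 1.1e-06).

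CYP81F3 had 51.8, 63.5 and 71.1 FPKM in erf114 on MeJA, against 43.3, 44.7 and 35.7 FPKM in erf114 on MS. In Col it had 68.7, 70.0 and 60.7 FPKM on MeJA, against 39.7, 47.5 and 42.0 FPKM on MS. The rise was the smallest of the 5, at 1.88-fold in erf114 (log2 0.91 ± 0.16, edgeR adjusted p = 0.0012) and 1.62-fold in Col (0.69 ± 0.16, edgeR adjusted p = 0.0067), without overlap between the groups. With limma on log2(FPKM + 1), where libraries are not rescaled, the rise in erf114 was 0.58 (limma adjusted p = 0.0064).

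CYP81F2 was the lowest of the 7 genes, with 0.85, 0.66 and 0.62 FPKM in erf114 on MeJA, against 2.07, 1.78 and 1.85 FPKM in erf114 on MS. In Col the libraries had 0.49, 0.56 and 0.73 FPKM on MeJA, against 1.95, 1.64 and 1.74 FPKM on MS. Every MeJA library lay below every MS library, on FPKM that was not rescaled and on which the median gene also shifted, by -0.28 in erf114 and -0.05 in Col (log2). It fell by 1.11 ± 0.24 on the log2 scale in erf114 (edgeR adjusted p = 0.0049) and by 1.53 ± 0.24 in Col (edgeR adjusted p = 0.00059). On the log2(FPKM + 1) scale, which understates the change of low genes, limma gave -0.76 in erf114 (limma adjusted p = 0.00069) and -0.80 in Col (limma adjusted p = 0.00047). In erf114 there were 65 counts on MeJA against 173 on MS, a ratio of 0.374 with an exact 95% interval of 0.277 to 0.501 for counting error. In Col there were 54 counts on MeJA against 163 on MS, a ratio of 0.332 with an interval of 0.239 to 0.454. Both ratios were scaled by library totals, without the scaling factors of the edgeR test, so they differ from its fold changes. CYP81F2 entered the test through its MS libraries alone, since 6 of 6 MS libraries and 0 of 6 MeJA libraries reached 1 FPKM. It passed in both genotypes without that filter as well.

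As a share of the summed FPKM of the 4 CYP81F genes, CYP81F4 held 95.4 ± 0.5% in erf114 on MeJA and 87.6 ± 1.5% in erf114 on MS, and 94.2 ± 0.5% in Col on MeJA and 86.2 ± 0.8% in Col on MS. The other 3 together summed to 99.4 ± 8.0 FPKM in erf114 on MeJA and 59.6 ± 5.7 in erf114 on MS, and to 98.6 ± 5.9 in Col on MeJA and 58.8 ± 5.4 in Col on MS. Within a group the order of mean levels was CYP81F4, CYP81F3, CYP81F1 and CYP81F2 in all 4 groups. For IGMT genes it was IGMT5, IGMT1 and IGMT2 in all 4 groups. Over the groups, the 2 MeJA groups stood above the 2 MS groups for the 5 genes that rose, with no overlap between the MeJA and MS libraries of either genotype. Neighbours within a medium overlapped for CYP81F3, IGMT1 and IGMT5 on both media. For IGMT2 each group overlapped its neighbour in the order.

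CYP81F3, CYP81F4 and CYP81F1 continue a row of CYP81 genes on chromosome 4. Of 5 neighbours tested in that row, CYP81D4 rose in both genotypes (25.5 ± 4.8 FPKM on MeJA and 12.2 ± 0.6 on MS in erf114, log2 1.36 ± 0.11, and 30.4 ± 1.4 on MeJA and 10.8 ± 1.5 on MS in Col, 1.57 ± 0.11). CYP81H1 rose by 0.97 ± 0.17 in erf114 (edgeR adjusted p = 0.0012) and 0.71 ± 0.17 in Col (edgeR adjusted p = 0.0097), at under 5 FPKM. The other 3, CYP81D3, CYP81D5 and CYP81D8, did not pass in either genotype, and CYP81D2 was not analysed here.

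**Figure D3:**
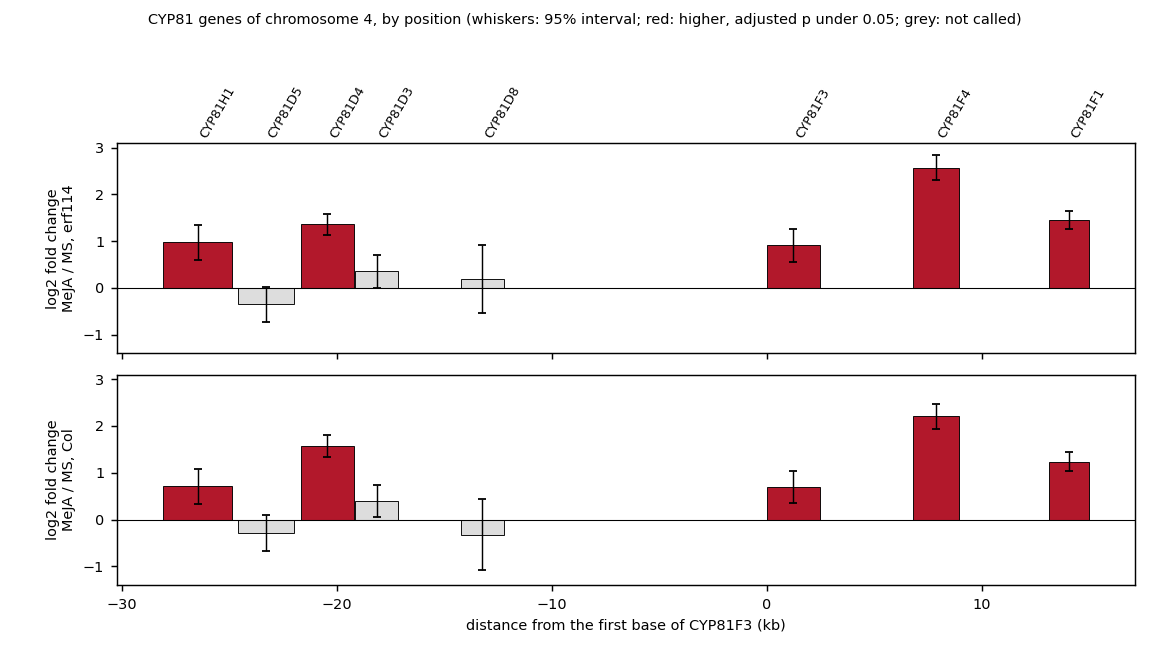
log2 fold change of MeJA over MS in erf114 (top) and Col (bottom) for the CYP81 genes of chromosome 4, placed by distance in kb from the first base of CYP81F3, with bar width as gene span, whiskers as 95% intervals, and red for genes with an adjusted p under 0.05. CYP81F4 has the tallest bar in both genotypes (2.57 in erf114 and 2.20 in Col), and genes that passed stand beside genes that did not.

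The genotype was compared on each medium. On MeJA, edgeR called 0 of the 7 genes between erf114 and Col, beside 0.382% of all genes tested, and 3 had an unadjusted p under 0.05, beside 8.58% of all genes. CYP81F4 was 1.38-fold higher in erf114 (log2 0.46 ± 0.12, 95% interval 0.21 to 0.71, edgeR adjusted p = 0.17), with all 3 erf114 libraries above all 3 Col libraries, a separation that 17.4% of all genes showed. CYP81F1 gave 0.34 ± 0.09 (0.15 to 0.53, edgeR adjusted p = 0.2) with overlapping libraries. With overlapping libraries too, IGMT2 gave 0.86 ± 0.31 (0.19 to 1.53, edgeR adjusted p = 0.44), and it was 0.40 without erf114 MeJA replicate 1 (edgeR adjusted p = 0.87) and 1.16 without erf114 MeJA replicate 2 (edgeR adjusted p = 0.085). DESeq2 called 2 of the 7 for the same difference, CYP81F4 at 0.47 (DESeq2 adjusted p = 2.2e-06) and CYP81F1 at 0.35 (DESeq2 adjusted p = 0.0041), beside 1.27% of all genes, and limma on log2(FPKM + 1) called 0, beside 0.437%. Over all alternatives the adjusted p ran from 2.2e-06 to 0.69 for CYP81F4 and from 0.0041 to 0.75 for CYP81F1.

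The other 4 genes had log2 values of 0.04 to 0.39 between erf114 and Col on MeJA, and none had an unadjusted p under 0.05. The values of CYP81F3 and IGMT1 turned to -0.10 and -0.04 with limma on log2(FPKM + 1), where the median gene shifted by -0.11. The 95% intervals were -0.16 to 0.43 for IGMT5, -0.26 to 0.45 for IGMT1, -0.30 to 0.38 for CYP81F3 and -0.19 to 0.96 for CYP81F2. On MS, edgeR called 0 of the 7, beside 0.0327% of all genes tested, and 0 had an unadjusted p under 0.05, beside 3.82%. DESeq2 called 0 as well (0.104% of all genes), and so did limma (0.0382%). The 7 values on MS lay between -0.18 (CYP81F3) and 0.15 (IGMT2), with a median of -0.03. CYP81F4 and CYP81F1 had FPKM that did not overlap between the genotypes on MS, as was true of 9.67% of all genes, but the gaps were narrow. For CYP81F4 the lowest erf114 library had 405.26 FPKM and the highest Col library 405.24. For CYP81F1 these values were 15.54 in erf114 and 15.37 in Col. CYP81F4 averaged 423.7 ± 18.9 FPKM in erf114 and 369 ± 49 in Col, and CYP81F1 16.5 ± 0.8 FPKM in erf114 and 14.01 ± 1.62 in Col. After scaling, the log2 values were 0.09 ± 0.12 for CYP81F4 and 0.12 ± 0.09 for CYP81F1.

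**Figure D4:**
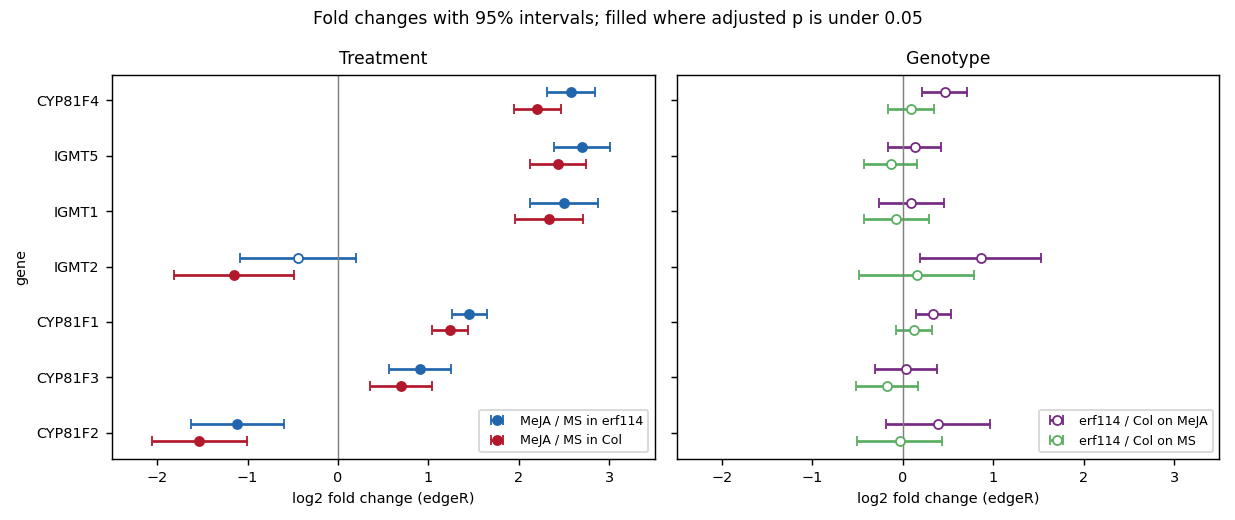
edgeR log2 fold changes with 95% intervals for the 7 genes, MeJA over MS in erf114 and Col (left) and erf114 over Col on MeJA and on MS (right), with filled points where the adjusted p is under 0.05. The treatment values of CYP81F4, IGMT5 and IGMT1 exceed 2 in both genotypes, and no genotype point is filled.

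The interaction of genotype and MeJA asks whether the response differed between erf114 and Col. edgeR called 0 of the 7, beside 0.0273% of all genes tested, and DESeq2 (0.224% of all genes) and limma (0.0327%) called 0 as well. CYP81F4 was the 1 gene of the 7 with an unadjusted p under 0.05 (0.37 ± 0.16, 95% interval 0.01 to 0.72, edgeR adjusted p = 0.64), beside 6.04% of all genes. The values of the 7 genes ran from 0.17 for IGMT1 to 0.71 for IGMT2, and those of CYP81F1, CYP81F3 and IGMT1 fell slightly below 0 with limma on FPKM that was not rescaled. For the genes with the strongest response the intervals were -0.15 to 0.68 for IGMT5 and -0.34 to 0.67 for IGMT1, so differences in response of that size between the genotypes could not be resolved.

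The rest of the pathway was followed through lists. Of the 9 genes that build the indole glucosinolate core, 9 rose in both genotypes, with a median log2 of 1.57 in erf114 and 1.45 in Col. CYP79B2, which converts tryptophan to its oxime, had 844 ± 37 FPKM in erf114 on MeJA and 218 ± 16 on MS, and 823 ± 19 in Col on MeJA and 212 ± 14 on MS, a log2 change of 2.26 ± 0.14 in erf114 (edgeR adjusted p = 3.1e-07) and 2.02 ± 0.14 in Col (edgeR adjusted p = 8e-07). CYP83B1, which acts on that oxime, rose by 1.73 ± 0.13 in erf114 and 1.66 ± 0.13 in Col, and GGP1, a peptidase that trims the glutathione conjugate, by 1.97 ± 0.16 in erf114 and 2.15 ± 0.16 in Col. GSTF10, a glutathione transferase, had the smallest rise of the list, at 1.06 ± 0.13 in erf114 and 1.07 ± 0.13 in Col. The log2 rises of CYP81F4, IGMT1 and IGMT5 thus lay above the largest core value in each genotype, while CYP81F3 lay below the smallest. In Col, however, CYP81F4 exceeded GGP1 by less than either standard error, and these differences between genes were not tested.

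Of 6 MYB and MYC regulators, 2 rose in erf114 and 3 rose and 1 fell in Col. MYB34, an activator of the indole pathway, had 267 ± 67 FPKM in erf114 on MeJA and 98.4 ± 4.1 on MS, and 300 ± 58 in Col on MeJA and 79.9 ± 18.4 on MS, with log2 changes of 1.73 ± 0.15 in erf114 and 1.98 ± 0.16 in Col. MYB51, an activator of the same pathway, went the other way in Col (-1.09 ± 0.33, edgeR adjusted p = 0.034) and stood at -0.87 ± 0.33 in erf114 (edgeR adjusted p = 0.093). MYB122 rose by 0.99 ± 0.18 in erf114 and 0.83 ± 0.19 in Col, and MYC2, the central jasmonate factor, stood at 0.71 ± 0.25 in erf114 (edgeR adjusted p = 0.071) and rose by 1.07 ± 0.25 in Col (edgeR adjusted p = 0.0082).

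All 3 glucosinolate transporter genes passed in both genotypes. GTR1 rose by 1.54 ± 0.33 in erf114 and 1.67 ± 0.33 in Col and GTR2 by 0.79 ± 0.11 in each, whereas GTR3 fell by 0.54 ± 0.10 in erf114 and by 0.34 ± 0.10 in Col. Of 11 tested genes of activation and breakdown, 3 rose in erf114 and 2 in Col. NSP1, a nitrile specifier protein that directs glucosinolate breakdown, had 3651 ± 473 FPKM in erf114 on MeJA and 527 ± 38 on MS, and 3102 ± 275 in Col on MeJA and 522 ± 63 on MS. PYK10, the main root beta-glucosidase, rose by 1.12 ± 0.17 in erf114 and 1.44 ± 0.17 in Col. PEN2, the atypical myrosinase that acts on the products of CYP81F2 in leaf defence, stood at -0.36 ± 0.14 in erf114 (edgeR adjusted p = 0.098) and -0.05 ± 0.14 in Col (edgeR adjusted p = 0.8).

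Across the 12 libraries the genes whose log2(FPKM + 1) was most like that of each member were found by Pearson's r, which the step between MeJA and MS dominates, and which is given as a description. CYP81F4 was closest to TSA1, a tryptophan synthase alpha subunit (r = 0.997), then AT4G27560 and AT5G38020 (0.996 each). IGMT5 was closest to CYP79B2, AT2G26370 and the thioredoxin TH7 (0.997 each), and IGMT1 to AIR1 (0.996), CYP89A5 and CYP79B2 (0.995 each). CYP81F1 was closest to the glutathione transferase GSTU8 and AT3G11210 (0.991 each) and AT4G39970 (0.990), and CYP81F3 to AT5G25640 (0.973), the mitochondrial carrier BAC2 (0.967) and the laccase LAC1 (0.965). Among genes lower on MeJA, CYP81F2 was closest to AT2G27930 (0.991), HVA22E and NRP1 (0.989 each), and IGMT2 to AT1G69900 (0.964), ERD6 (0.962) and AT4G36000 (0.961).

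Deviations of libraries from their group means, which leave the step out, were related for some pairs over the same 12 libraries. The correlation was 0.72 between CYP81F4 and IGMT5, 0.69 between CYP81F4 and its neighbour CYP81F1, and 0.10 between CYP81F4 and CYP81F3. Within the tandem array it was 0.84 between IGMT2 and IGMT3, 0.74 between IGMT2 and IGMT4 and 0.70 between IGMT1 and IGMT3. The remaining pairs of the array gave 0.54 (IGMT3 and IGMT4), 0.34 (IGMT1 and IGMT2) and 0.26 (IGMT1 and IGMT4). The value for IGMT2 and IGMT3 is uncertain where reads could be assigned to either. The correlation was -0.67 between CYP81F2 and CYP81F3, -0.65 between CYP81F3 and IGMT3 and -0.63 between CYP81F3 and IGMT2. These pairs share libraries and depth, and the libraries that stood apart on the second principal component are included. The FPKM values were not rescaled between libraries. The pairs named are a selection, and no values for other pairs of genes were computed to set beside them.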

How the data were processed

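Per the file headers, each library came with a deposited file of estimated counts, TPM and FPKM by gene identifier. The aligner, the counter and the build used were not stated in the labels or headers used here. Of the deposited estimated counts, 1.542 to 1.718% per library were fractional, and all were rounded to whole numbers. The deposited FPKM values served for the filter, the levels and the limma alternatives, and the deposited TPM values for no result. Genes absent from a file counted as 0. All 23719 identifiers matched RefSeq's gene table for TAIR10.1, which lists CYP81F1 as CYP91A2 and GTR3, PCS1, TGG4, TGG5 and COBL9 under other symbols.

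Counts were fitted in edgeR 4.0.16 (R 4.3.3) with TMM factors, 4 group means and 8 residual degrees of freedom, keeping genes that reached 1 FPKM in 3 or more libraries. Quasi-likelihood p-values were adjusted by Benjamini-Hochberg, and a standard error is the absolute log2 fold change over the square root of F. Alternatives were limma 3.58.1 on log2(FPKM + 1) or log2(FPKM + 0.1), DESeq2 1.42.0, median-of-ratios scaling, a mean FPKM of at least 5, no filter, a fit of the contrasted groups alone, a replicate block, each library left out, and the 4 tandem IGMT copies summed. Scripts were tested on simulated data. Library totals were 20546417 to 20897031 counts and the biological coefficient of variation was 17.9%, which sets the precision, and count intervals cover counting error only.

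Same-numbered libraries deviated together, with a correlation over 0.1 in every pair, for erf114 and Col on MS (0.2, 0.21 and 0.3) and for MeJA and MS in Col (0.43, 0.43 and 0.26), and not in the other contrasts. What same-numbered libraries have in common is not in the labels.

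The 7 genes and the lists were chosen with earlier results of these data known. The genes named are the 7 loci, IGMT3 and IGMT4, ERF114, the largest rise and fall and the best known members of each list, and the 3 genes most like each locus. AT4G37409, AT4G37432, GSTF10, MYB122, MYC2, GTR2, NSP2, the CYP81 neighbours other than CYP81D4, and the ratio of CYP81F4 to IGMT5 fall outside that rule and were chosen after values were seen. ESP, at no more than 0.32 FPKM in any library, did not pass the filter. The promoter window of IGMT5 is not reported here. Alignments used Biopython 1.88.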

Additional observations from a re-analysis of the deposited data

How the results depend on the processing

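The number of the 7 genes called for MeJA stayed at 5 to 7 in erf114 (6 as reported) and at 6 to 7 in Col (7 as reported) over the 20 alternatives that kept the IGMT copies apart, and leaving out 1 library gave 6 to 7 in both. At a mean FPKM of at least 5, CYP81F2 was not tested, and 5 of the other 6 genes passed in erf114 and 6 in Col. With the 4 IGMT copies summed, 6 of 6 features passed in both. Between erf114 and Col on MeJA, DESeq2 called 2 of the 7 where edgeR called 0. The other alternatives called 0 there, and all called 0 on MS and for the interaction, each library left out included. IGMT2 in erf114 also passed with limma (-0.73 with log2(FPKM + 1), limma adjusted p = 0.038), where libraries were not rescaled and the median gene shifted by -0.28. No MeJA response of the 7 genes changed sign. Among values that passed in no setting, some near 0 did. With limma on log2(FPKM + 1) and on log2(FPKM + 0.1), the sign turned for erf114 over Col on MeJA in CYP81F3 (-0.105 and -0.107) and IGMT1 (-0.037 in both), for erf114 over Col on MS in CYP81F2 (0.063 and 0.092) and IGMT1 (0.033 in both), and for the interaction in CYP81F1 (-0.018 and -0.026), CYP81F3 (-0.04 in both) and IGMT1 (-0.07 and -0.071). With 1 library left out, the range was -0.155 to 0.158 for CYP81F3 on MeJA, and on MS -0.164 to 0.172 for CYP81F2 and -0.222 to 0.074 for IGMT1. The cause of these differences was not tested. A replicate block changed no call of the 7 genes (6 in erf114, 7 in Col, 0 elsewhere).

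Over all genes, limma on log2(FPKM + 1), which does not rescale libraries, called 5419 genes for MeJA in erf114 where edgeR called 3438, with 22.6% of them higher against 54.2%. In Col the shares higher were 32.7% with limma and 47.5% with edgeR. DESeq2 called 233 genes on MeJA between the genotypes (edgeR 70), 19 on MS (edgeR 6) and 41 for the interaction (edgeR 5), and a fit of the contrasted groups alone called 3 on MS. Leaving out 1 library gave 19 to 133 genes on MeJA, 3 to 16 on MS and 0 to 8 for the interaction. The depth limits CYP81F2 most, at 54 to 173 counts per group.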

Other observations

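NSP2, a nitrile specifier protein gene of the breakdown list, had 51, 24 and 37 counts in erf114 on MeJA and 1, 63 and 34 in erf114 on MS, against 0, 0 and 1 in Col on MeJA and 0 in each Col library on MS. It was not called by edgeR in any of the contrasts. NSP2 entered the test through erf114 libraries alone, as no Col library reached 1 FPKM, so these counts are a description only.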
